A study of Mus musculus with 4 samples.

Results

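The genes described here are the histone-modifying and chromatin-remodelling enzymes of large intestinal (LI) Treg cells, together with the subunits and readers that carry the same family names. They were chosen by gene name: symbols that begin with Kmt, Kdm, Setd, Hdac, Prmt, Sirt, Ezh, Suv39, Suv420, Dnmt, Tet, Brd, Chd, Smarc, Arid or Kat followed by a number or a letter and a number, and *Ep300*, *Crebbp*, *Jarid2*, *Eed*, *Suz12*, *Dot1l*, *Ehmt1* and *Ehmt2*. Symbols that end in -ps, as many pseudogenes do, and 8 further symbols, among them the deleted gene *Setd2*, were left out by the same rule. This gave 126 of the 53379 genes listed, of which 122 are protein-coding. The rule itself uses names and no measured value.

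RNA of Treg cells (CD3+CD4+YFP+) from the LI of adult C57BL/6 mice at steady state was sequenced, with 2 control libraries and 2 KO libraries. Mice of both groups carried *Foxp3*Cre-YFP, which expresses Cre and the YFP reporter under *Foxp3* and so confines deletion to cells that have expressed it. Control mice (*Setd2* f/+) had 1 floxed and 1 intact copy of *Setd2*, whereas KO mice (*Setd2* f/f) had 2 floxed copies. A library came from 2 to 3 pooled mice, and the SD given below is thus the spread between pools.

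Chromatin enzymes write, erase and read chemical marks on histone tails and on DNA, or use ATP to move nucleosomes. Methyltransferases and acetyltransferases add marks, demethylases, histone deacetylases and sirtuins remove them, and bromodomain proteins bind acetylated lysines. *Setd2* encodes the enzyme that places trimethylation on lysine 36 of histone H3 in the bodies of transcribed genes, and several of the other enzymes, among them Polycomb repressive complex 2 (PRC2), are known to respond to that mark on the nucleosome. In Treg cells, PRC2, histone deacetylases and DNA methylation are known for their part in keeping the lineage stable.

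Expression was given as FPKM, in which fragments are scaled to transcript length and to the fragments mapped, so levels of different genes can be compared on this scale. The 4 libraries had been brought to a common distribution and their depth is unknown. The marker check and the target gene bear on every result below. *Foxp3* itself was listed at an FPKM between 2.62 and 5.61, while *Il2ra* lay between 152.14 and 183.66. At an unadjusted limma p below 0.05, *Ctla4* was higher in KO (1593.26 and 1700.67 in control, 2159.97 and 2310.35 in KO) and *Ikzf2* lower (120.75 and 115.57 in control, 84.12 and 98.36 in KO). Of the 10 Treg and T cell markers, 9 passed the filter on low values, and *Foxp3* did not. A level below the filter thus does not show that Treg cells lack a gene. The summed FPKM of the other lists was 3.05 to 6.28 for 6 CD8 and NK cell markers, 438 to 506 for 7 B and plasma cell markers, of which *Jchain* gave 111.97 to 168.57, and 202 to 254 for 9 myeloid markers, of which *Lyz2* gave 127.83 to 167.97. It was 27.7 to 35.4 for 8 epithelial markers, of which *Muc2* gave at most 0.14, and 37.5 to 55.2 for 7 stromal and endothelial markers. *Epcam* was lower in KO at that threshold (28.65 and 30.81 in control, 19.58 and 21.13 in KO), and *Krt18* (4.23 and 4.52 in control, 7.22 and 7.18 in KO) and *Pecam1* (34.65 and 36.26 in control, 49.25 and 42.72 in KO) were higher. The part of these markers in the results below was not tested. *Setd2* was at 38.19 and 27.36 in the control libraries and at 26.33 and 36.30 in the KO libraries. The FPKM covers the whole gene, so it does not check the deletion, and control and KO mean the libraries as labelled.

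A gene was tested if it was protein-coding and its mean FPKM exceeded 5 in control or in KO, and 90 of the 122 protein-coding members passed. The differences were tested by limma on log2(FPKM + 1) over 7639 genes, with p-values adjusted by the Benjamini-Hochberg method over all of them. Log2 fold changes compare KO with control on that scale, with positive values for higher levels in KO, and understate the change of genes with low FPKM. With 2 libraries a group, an exact permutation test of 1 gene cannot give a p below 0.33. The unadjusted p-values therefore rest on the variance limma shares across genes, and only in part on the spread between a gene's own pools. Fewer cells of a type and less RNA per cell cannot be told apart in these values.

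The levels were looked at first, as a description of the chromatin enzyme mRNA in the libraries of sorted LI Treg cells. The 90 tested members had a median FPKM of 15.7, with a range of 4.16 to 221, compared with a median of 23.0 over all tested genes. Together they made up 0.427% and 0.413% of the summed FPKM in the control libraries, and 0.433% and 0.404% in the KO libraries. Only 9 members had a mean above 100 and 26 had a mean under 10. *Sirt7*, a nuclear deacylase tied to ribosomal gene transcription, was the highest member with a mean FPKM of 221.

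Most classes were led by 1 or a pair of genes. The AT-rich DNA binding protein *Arid5a*, which also binds mRNA, had a mean FPKM of 208, and *Smarce1*, a DNA-binding subunit of SWI/SNF complexes, had 176. Among the chromodomain helicases, *Chd2* had a mean of 205 and *Chd7* 76.6. The H3K27 demethylase *Kdm6b* was at 163, and its X-linked relative *Kdm6a* at 30.7. The H3K4 demethylase *Kdm5a* was at 49.2.

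Among the lysine methyltransferase family, *Kmt2e*, a family member regarded as lacking methyltransferase activity, had a mean FPKM of 122, and the H4K20 methyltransferase *Kmt5b* followed at 32.7. The 4 tested H3K4 methyltransferases lay far lower, between 5.98 and 8.02. *Brd2*, a BET protein that tethers transcription regulators to acetylated chromatin, had a mean of 113. *Eed*, the PRC2 subunit that binds methylated H3K27, had 101, whereas the catalytic subunits *Ezh1* and *Ezh2* had 24.6 and 12.5. *Jarid2*, a PRC2 cofactor that helps target the complex, had 58.2.

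*Hdac1* had a mean of 94.3 and *Hdac4* of 48.0 among the zinc-dependent deacetylases. *Kat7*, which acetylates H3K14, led the acetyltransferases at 47.1, followed by the co-activator *Crebbp* at 36.5. *Prmt1*, the main asymmetric arginine methyltransferase, was at 42.7 and *Prmt5*, the main symmetric one, at 15.99. *Tet2*, which oxidises 5-methylcytosine, was at 59.5 and the maintenance DNA methyltransferase *Dnmt1* at 7.44. These were the 2 DNA methylation genes tested of 9 listed.

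**Figure D1:**
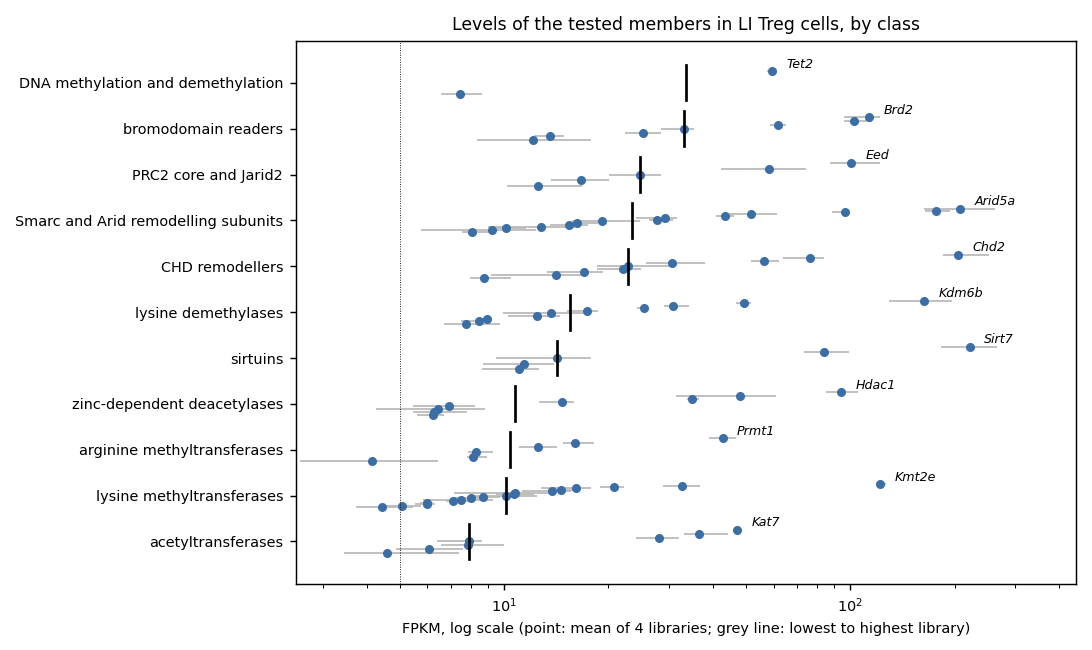
FPKM of the 90 tested members on a log axis, 1 row of points per class, with each point the mean of the 4 libraries, a grey line from the lowest to the highest library, a black bar at the class median and a dotted line at the filter of 5. The highest member of each class is named; *Sirt7* (221), *Arid5a* (208) and *Chd2* (205) had the highest means of all, and the acetyltransferases had the lowest class median, 7.92.

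The 32 protein-coding members that were not tested included 5 with a mean of at most 0.1 in both groups, *Arid3c*, *Chd5*, *Dnmt3c*, *Dnmt3l* and *Prmt8*. The member just inside the filter was *Setdb1*, whose larger group mean was 5.09, and the one just outside was *Smarcd1* at 4.88. In a fit with a mean FPKM of at least 1, 2 of the untested members had an unadjusted p below 0.05. *Kat14*, an acetyltransferase of the ATAC complex, had an FPKM of 1.63 and 1.25 in control and of 3.43 and 3.13 in KO. Its log2 fold change was 0.81 (unadjusted p of 0.0112 and adjusted p = 0.213 by limma). *Kdm4d* had 0.65 and 0.19 in control and 1.23 and 1.66 in KO, with an unadjusted limma p of 0.0325 and an adjusted p of 0.289.

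The comparison of KO with control asks which of these enzymes differ in their own mRNA when Treg cells lack the H3K36 methyltransferase. *Jarid2* fell in KO and was the only member with an adjusted p below 0.05 (0.589% of all tested genes passed, 0.314% higher and 0.275% lower). By the looser threshold of the study, an unadjusted p below 0.05, 7 of the 90 members were higher in KO and 5 were lower, or 13.3%, against 16.2% of all tested genes (8.61% higher and 7.57% lower). The members were thus called at about the rate of the background. The members higher in KO were *Sirt7*, *Brd7*, *Setdb2*, *Sirt6*, *Sirt2*, *Kmt5a* and *Arid4a*, and those lower were *Jarid2*, *Hdac5*, *Prmt6*, *Chd6* and *Kmt5b*.

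Of the 78 members not called, 15 had a log2 fold change of 0.25 or more in size. The log2 fold change was within 0.25 of 0 for 63 of the 90 members (70.0%), compared with 64.6% of all tested genes, and the median was -0.04, compared with -0.0039 over all tested genes. It was positive for 38 members and negative for 52. For 18 members both KO values exceeded both control values and for 25 both were below, so 47.8% did not overlap, against 47.1% of all tested genes (24.2% above and 22.9% below). The number of members called moved with each single library left out, as did that of all tested genes. The counts above thus rest on all 4 libraries.

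**Figure D2:**
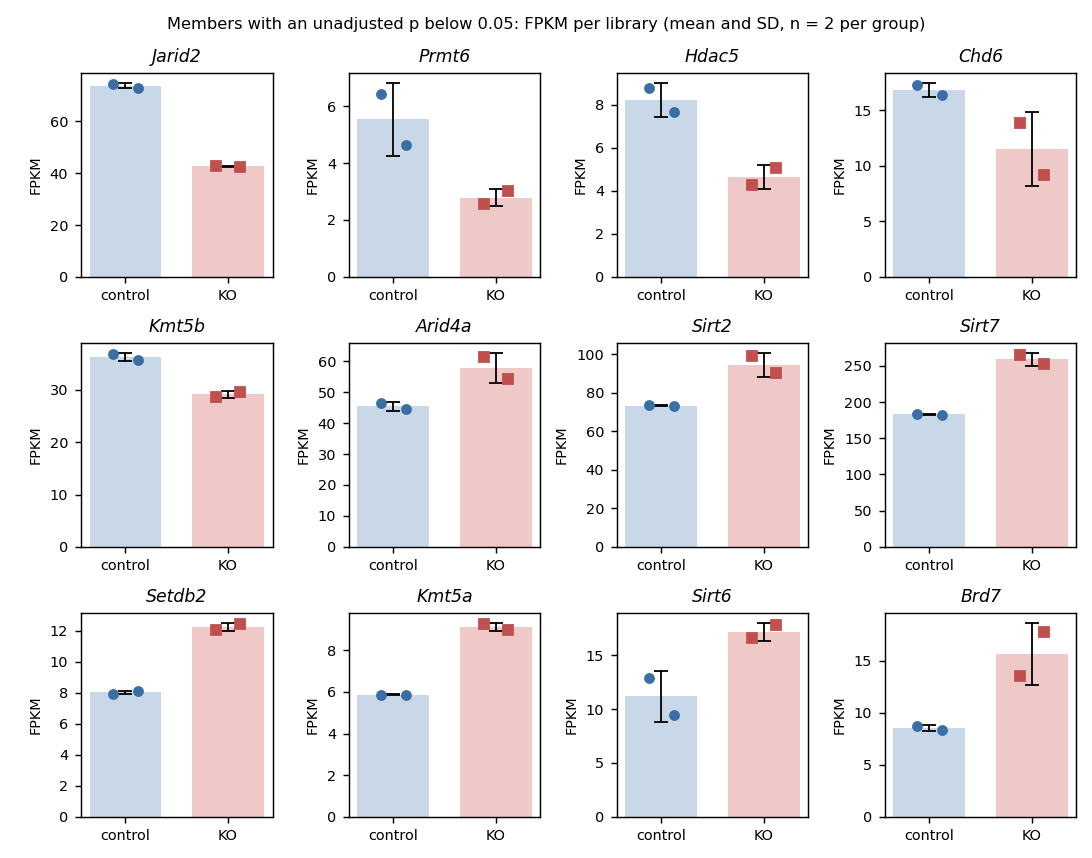
FPKM of the 12 members with an unadjusted limma p below 0.05, 1 panel per gene in the order of their log2 fold change, with a point for each library, a bar for the group mean and an error bar for the SD (n = 2 per group), all axes from 0. In each panel the control and KO points do not overlap, from *Jarid2* (74.52 and 73.03 in control, 42.79 and 42.43 in KO) to *Brd7* (8.77 and 8.37 in control, 13.55 and 17.79 in KO).

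PRC2 and its cofactor come first, as they held the member with the smallest p. *Jarid2* (ENSMUSG00000038518, chromosome 13 of GRCm38, 44729474 to 44921643) had FPKM values of 74.52 and 73.03 in control 1 and 2, and of 42.79 and 42.43 in KO 1 and 2. The pools of each group were almost alike and the groups lay far apart. The mean was 73.8 ± 1.05 (SD, n = 2) in control and 42.6 ± 0.255 in KO, or 0.578 times control, with a log2 fold change of -0.78 (standard error 0.12, unadjusted p of 0.000227 and adjusted p = 0.0475 by limma). It ranked as 35 of all tested genes by p. The adjusted p of *Jarid2* was just under 0.05, and without control 1 it was 0.0874, without control 2 0.0669, without KO 1 0.246 and without KO 2 0.345, all with an unadjusted limma p below 0.05.

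The 4 genes of the PRC2 core did not pass and their groups overlapped. *Eed* had an FPKM of 121.58 and 95.74 in control and of 87.62 and 97.73 in KO, for a log2 fold change of -0.22 (adjusted p = 0.504 by limma). *Suz12*, the scaffold of the complex, had -0.20 (adjusted p = 0.650), *Ezh2* -0.17 (adjusted p = 0.796) and *Ezh1* 0.05 (adjusted p = 0.937). Of 6 tested PRC2 accessory subunits, none was called in either direction at an unadjusted limma p below 0.05, against 16.2% of all tested genes. The largest difference was that of *Phf1*, with a log2 fold change of -0.43 (adjusted p = 0.442). Of 11 tested subunits of PRC1, the complex that ubiquitinates H2A, 2 were higher in KO at that threshold, *Phc3* (log2 fold change 0.38, adjusted p = 0.268) and *Pcgf5* (0.32, adjusted p = 0.292). These were 18.2% of those tested, against 8.61% of all tested genes called higher and 16.2% called in either direction.

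Promoter sequences are shown for *Jarid2* and for 3 further called members, to put the regulatory sequence at their starts beside their values. RefSeq (GRCm38.p6) held windows of 300 bases, from 250 before to 50 after a transcription start, for 72 of the 90 tested members by symbol, and for 11 of the 12 called members, without *Arid4a*. Capitals mark matches on either strand to a GC box (GGGCGG), the motif of Sp factors, to CCAAT, the motif of NF-Y, and to CCGGAAG, an ETS core. The matches in the printed windows do not overlap each other. GGGCGG is present in 35.7% of the 32851 promoters in the table and in 63.9% of those of all tested genes, CCAAT in 37.4% and 37.5%, and CCGGAAG in 8.86% and 21.3%. Both starts of *Jarid2* held 1 GC box and 1 CCAAT match, and base 251 is the first transcribed base.
Jarid2, first start, chr13:44730524-44730823, plus strand: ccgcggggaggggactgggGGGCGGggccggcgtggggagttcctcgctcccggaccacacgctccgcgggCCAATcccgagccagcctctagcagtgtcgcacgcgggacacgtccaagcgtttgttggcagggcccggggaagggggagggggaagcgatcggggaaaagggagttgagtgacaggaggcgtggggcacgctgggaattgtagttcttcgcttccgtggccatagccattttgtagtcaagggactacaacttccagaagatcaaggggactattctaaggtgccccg
Jarid2, second start, chr13:44731021-44731320, plus strand: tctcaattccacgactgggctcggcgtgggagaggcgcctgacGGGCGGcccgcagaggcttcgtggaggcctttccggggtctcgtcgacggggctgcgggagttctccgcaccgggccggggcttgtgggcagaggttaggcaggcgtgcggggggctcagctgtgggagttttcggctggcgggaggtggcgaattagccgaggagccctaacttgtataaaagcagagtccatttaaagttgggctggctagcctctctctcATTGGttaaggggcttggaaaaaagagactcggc

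Sirtuins, NAD-dependent deacylases, were the class with the highest share called: 3 of the 5 tested members were higher in KO, against 8.61% of all tested genes. All 5 had a positive log2 fold change, against 49.4% of all tested genes, and the class median was 0.36. With 1 library left out, *Sirt1* ranged from -0.13 to 0.38 and *Sirt4* from 0.07 to 0.48. *Sirt7*, *Sirt6* and *Sirt2* stayed positive, with lowest values of 0.46, 0.39 and 0.29. *Sirt7* (ENSMUSG00000025138, chromosome 11, 120618372 to 120625240) had FPKM values of 183.85 and 182.82 in control 1 and 2, and of 265.48 and 252.98 in KO 1 and 2. Both KO pools stood above both control pools by far more than either pair was apart. The mean was 183 ± 0.728 (SD, n = 2) in control and 259 ± 8.84 in KO, 1.41-fold higher, with a log2 fold change of 0.50 (standard error 0.10, unadjusted p of 0.00177 and adjusted p = 0.0869 by limma). The call of *Sirt7* held with each library left out, with an unadjusted limma p of at most 0.0201. The neighbouring gene *Mafg* shares 124 exon bases with *Sirt7* on the same strand, or 2.41% of those of *Sirt7*, and was listed at 8.24 and 8 in control and at 6.47 and 5.59 in KO.

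*Sirt6*, a chromatin-bound H3K9 deacetylase, had an FPKM of 12.87 and 9.48 in control and of 16.58 and 17.76 in KO. The control pools of *Sirt6* differed more than the KO pools, and the groups did not overlap. Its log2 fold change was 0.59 (standard error 0.19, unadjusted p of 0.0157 and adjusted p = 0.213 by limma), and the unadjusted p was 0.0819 without KO 2 and 0.0871 without control 2. *Sirt2*, a largely cytoplasmic deacetylase that acts on tubulin and on H4K16 in mitosis, had 73.48 and 73.29 in control and 98.93 and 90.25 in KO. The control pools were nearly equal and both lay below both KO pools. Its log2 fold change was 0.36 (standard error 0.12, unadjusted p of 0.0159 and adjusted p = 0.213 by limma), with an unadjusted p of 0.122 without KO 1.

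*Sirt1*, the nuclear deacetylase that can act on Foxp3 protein, had an FPKM of 12.64 and 8.61 in control and of 11.70 and 11.30 in KO, and the groups overlapped (log2 fold change 0.13, adjusted p = 0.826). Mitochondrial *Sirt4* also overlapped, with a log2 fold change of 0.27. The mitochondrial genes *Sirt3* and *Sirt5* were below the filter, with an FPKM of 1.95 to 6.28 and of 1.12 to 1.59. In the fit with a mean FPKM of at least 1 they were not positive, with log2 fold changes of -0.0084 and -0.16. For *Sirt5* both KO values were below both control values. Summed over the 5 tested sirtuins, the FPKM was 295 and 283 in control and 407 and 383 in KO, and *Sirt7* made up the larger part of each sum.

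The windows of the 2 sirtuins with the highest levels are given with the same capitals. That of *Sirt7* held 2 ETS cores and 1 GC box, and that of *Sirt2* 1 GC box and 2 CCAAT matches.
Sirt7, chr11:120624965-120625264, minus strand: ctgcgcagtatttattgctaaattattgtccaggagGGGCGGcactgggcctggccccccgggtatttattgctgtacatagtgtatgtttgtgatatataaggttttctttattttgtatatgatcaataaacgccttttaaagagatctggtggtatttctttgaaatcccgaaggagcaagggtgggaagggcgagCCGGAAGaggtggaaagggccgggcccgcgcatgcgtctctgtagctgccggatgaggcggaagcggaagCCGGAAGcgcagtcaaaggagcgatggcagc
Sirt2, chr7:28766502-28766801, plus strand: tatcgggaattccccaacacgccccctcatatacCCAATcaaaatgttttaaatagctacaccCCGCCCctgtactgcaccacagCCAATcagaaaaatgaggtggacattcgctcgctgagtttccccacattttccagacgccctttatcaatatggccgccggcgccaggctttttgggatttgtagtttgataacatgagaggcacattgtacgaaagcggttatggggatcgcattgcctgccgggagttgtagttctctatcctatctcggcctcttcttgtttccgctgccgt

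Zinc-dependent deacetylases showed a single call among 8 tested members, or 12.5%, against 16.2% of all tested genes. *Hdac5*, a class IIa enzyme that shuttles between nucleus and cytoplasm and binds MEF2 factors, had FPKM values of 8.79 and 7.67 in control 1 and 2, and of 4.25 and 5.05 in KO 1 and 2. Both KO pools were below both control pools. The mean was 8.23 ± 0.792 (SD, n = 2) in control and 4.65 ± 0.566 in KO, or 0.565 times control, with a log2 fold change of -0.71 (standard error 0.21, unadjusted p of 0.0115 and adjusted p = 0.188 by limma). The unadjusted p of *Hdac5* was 0.0600 without KO 1 and 0.0682 without control 1. The other class IIa genes tested had positive values: *Hdac4* 0.18 (adjusted p = 0.806), with overlapping groups, and *Hdac7*, which has roles in T cell development, 0.23 (adjusted p = 0.533).

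The class I enzymes are *Hdac1*, *Hdac2* and *Hdac3*, catalytic subunits of nuclear co-repressor complexes, and *Hdac8*. Their log2 fold changes were between -0.13 and 0.13 and none was called. *Hdac1* had an FPKM of 84.94 and 105.37 in control and of 96.75 and 89.97 in KO. Of 19 other tested subunits of the co-repressor complexes, 3 were higher in KO at an unadjusted limma p below 0.05. None was lower and none passed adjustment. The 3 called were 15.8% of those tested, against 8.61% of all tested genes called higher and 16.2% called in either direction. The smallest p was that of *Mbd2*, the methyl-CpG binding subunit of NuRD, with an FPKM of 44.43 and 30.73 in control and of 51.30 and 59.03 in KO (log2 fold change 0.56, adjusted p = 0.222). *Gps2*, a subunit of the NCoR complex, followed with 0.33 (adjusted p = 0.277). The *Hdac5* window held 1 GC box and 2 CCAAT matches.
Hdac5, chr11:102230123-102230422, minus strand: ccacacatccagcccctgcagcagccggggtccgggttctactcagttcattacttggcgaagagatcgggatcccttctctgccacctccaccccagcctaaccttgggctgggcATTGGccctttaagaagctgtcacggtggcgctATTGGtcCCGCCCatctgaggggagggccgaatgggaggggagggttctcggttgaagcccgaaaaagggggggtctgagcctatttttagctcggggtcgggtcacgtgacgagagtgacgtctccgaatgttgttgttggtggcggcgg

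Among 26 pairs of related members, the mean ratio differed most between the groups for a pair of class IIa genes. The log2 ratio of *Hdac4* to *Hdac5*, taken within each library on FPKM + 1, was 2.66 and 1.90 in control 1 and 2, and 3.18 and 3.16 in KO 1 and 2, a difference of 0.89 between the group means that was 0.51 without control 2 and 1.27 without control 1. The ratio of *Kat6a* to *Kat6b* was -1.11 and -1.38 in control and -0.86 and -0.37 in KO, a difference of 0.63, and of 0.38 without KO 2. That of *Chd1* to *Chd2* was -2.30 and -2.63 in control and -3.25 and -2.68 in KO, a difference of -0.50, and of -0.34 without control 1, -0.22 without KO 1 and -0.78 without KO 2. The order of the pairs rested on the pools: without control 2 the largest difference was that of *Kmt5b* to *Kmt5c*, at -0.98, and *Hdac4* to *Hdac5* ranked 7. Groups did not overlap for 7 of the 26 pairs. With 2 libraries a group, a share of 0.33 of all orderings of the libraries gives groups that do not overlap. The count thus does not show a change in balance. The exact permutation test gave a two-sided p of 0.33 for the first 3 pairs named, the smallest that it allows. In 23 pairs the same gene was the higher one in all 4 libraries, as with *Tet2* over *Tet3*, *Hdac1* over *Hdac2* and *Crebbp* over *Ep300*.

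**Figure D3:**
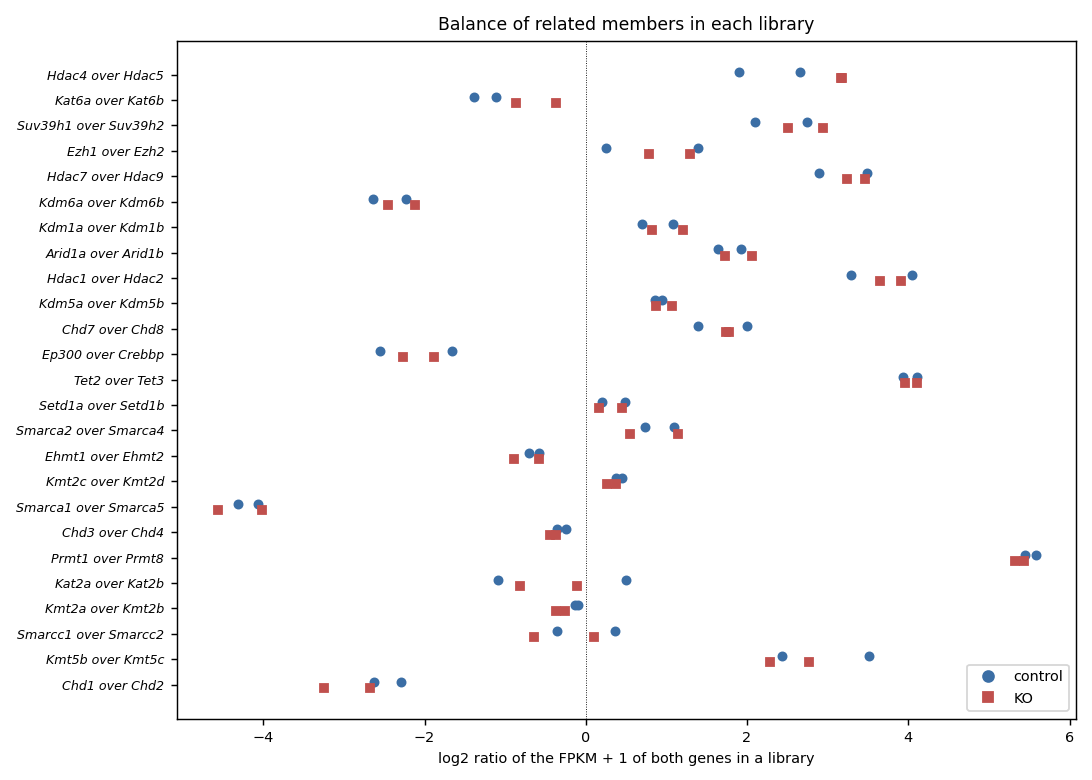
Log2 ratio of the FPKM + 1 of both genes of 25 of the related pairs in each library (circles for control, squares for KO), ordered by the difference between KO and control, with the dotted line at equal levels. The KO points lie right of the control points for *Hdac4* over *Hdac5* (3.18 and 3.16 against 2.66 and 1.90) and left of them for *Chd1* over *Chd2*.

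Among the lysine methyltransferases, 2 of the 17 tested members were higher in KO and 1 was lower, and the class median was 0.03. The called members were 17.6%, against 16.2% of all tested genes. Both tested H4K20 methyltransferases were called, in opposite directions. *Kmt5a*, which places the first methyl group on H4K20 and is tied to the cell cycle, had an FPKM of 5.84 and 5.87 in control and of 9.26 and 8.99 in KO. *Kmt5b*, which adds the further methyl groups, had 36.86 and 35.75 in control and 28.72 and 29.59 in KO. For both genes the pools of a group were almost alike and the groups did not overlap. The log2 fold change of *Kmt5a* was 0.56 (standard error 0.19, unadjusted p of 0.0196 and adjusted p = 0.222 by limma) and that of *Kmt5b* -0.31 (standard error 0.13, unadjusted p of 0.0457 and adjusted p = 0.301 by limma). Neither call held with any single library left out: the unadjusted p ranged from 0.0542 to 0.0807 for *Kmt5a* and from 0.0875 to 0.176 for *Kmt5b*. *Kmt5c*, the third enzyme of this group, was below the filter, with an FPKM of 2.33 to 5.83.

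Some proliferation markers were higher in KO, as *Kmt5a* was. Of 20 tested markers, 7 were higher at an unadjusted limma p below 0.05, against 8.61% of all tested genes, 0 were lower, 13 were not called and none passed adjustment. In 12 both KO values exceeded both control values, against 24.2% of all tested genes, and 8 overlapped. The list summed to an FPKM of 779 and 745 in control and of 917 and 899 in KO. *Top2a*, the topoisomerase of dividing cells, had 19.05 and 19.42 in control and 36.28 and 33.18 in KO. The part of proliferation in the *Kmt5a* value was not tested.

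*Setdb2*, an H3K9 methyltransferase, had FPKM values of 7.93 and 8.10 in control 1 and 2, and of 12.06 and 12.42 in KO 1 and 2. The groups were well apart relative to the spread of their pools. The mean was 8.02 ± 0.120 (SD, n = 2) in control and 12.2 ± 0.255 in KO, 1.53-fold higher, with a log2 fold change of 0.55 (standard error 0.17, unadjusted p of 0.0135 and adjusted p = 0.200 by limma). The unadjusted p of *Setdb2* was 0.0541 without KO 1 and 0.0679 without KO 2. The 4 other tested H3K9 methyltransferases, *Ehmt1*, *Ehmt2*, *Suv39h1* and *Setdb1*, had log2 fold changes between 0.00090 and 0.16 and were not called.

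The 4 tested H3K4 methyltransferases *Kmt2a*, *Kmt2b*, *Kmt2c* and *Kmt2d* had log2 fold changes between -0.19 and 0.10. None was called, against 16.2% of all tested genes. For *Kmt2a*, *Kmt2c* and *Kmt2d* both KO libraries were below both control libraries, as in 22.9% of all tested genes. *Kmt2e* had an FPKM of 122.52 and 118.85 in control and of 126.64 and 120.10 in KO. *Dot1l*, the H3K79 methyltransferase, had a log2 fold change of -0.26 (adjusted p = 0.496) with groups that did not overlap. Of 12 tested partners in the COMPASS and MLL complexes, 1 was called, or 8.33%, against 16.2% of all tested genes. This was *Ash2l*, a subunit needed for their activity, which was lower in KO (unadjusted p of 0.0267 and adjusted p = 0.242 by limma). Its FPKM was 21.84 and 21.82 in control and 15.82 and 16.83 in KO.

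None of the 10 tested lysine demethylases was called at an unadjusted limma p below 0.05, against 16.2% of all tested genes. *Kdm6b* had an FPKM of 196.04 and 163.46 in control and of 165.03 and 129.21 in KO, for a log2 fold change of -0.29 with overlapping groups (unadjusted p of 0.0986 and adjusted p = 0.405 by limma). The X-linked *Kdm6a*, which escapes X inactivation and so depends on the sex of the mice, had 30.56 and 34.09 in control and 29.34 and 28.96 in KO. Its groups did not overlap, with a log2 fold change of -0.14 (adjusted p = 0.649). Both *Xist* and the Y-linked *Ddx3y* were listed in each library, *Xist* at 7.22 and 7.02 in control and 5.08 and 6.41 in KO, *Ddx3y* at 77.30 and 58.05 in control and 87.95 and 102.23 in KO. Each library thus held transcripts of both sexes. Of 4 tested sex-linked genes, 2 were higher in KO at an unadjusted limma p below 0.05, against 8.61% of all tested genes. All 4 had a positive log2 fold change and 0 passed adjustment. The part of the mixture of sexes in the *Kdm6a* value and in the other results was not tested. The 4 tested H3K4 demethylases, *Kdm1a*, *Kdm1b*, *Kdm5a* and *Kdm5b*, had log2 fold changes between -0.06 and 0.07, and all 4 overlapped. Over all tested genes, 47.1% did not overlap.

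Of the acetyltransferases, 0 of the 7 tested members were called at an unadjusted limma p below 0.05, against 16.2% of all tested genes. The groups overlapped for 5 of the 7, so 28.6% did not overlap, against 47.1% of all tested genes. All 7 had a negative log2 fold change, between -0.37 and -0.0015 with a median of -0.17, against 50.6% of all tested genes. The untested *Kat14* and *Kat6a* were positive in the fit with a mean FPKM of at least 1, at 0.81 and 0.33. The untested *Kat2a* was negative there, at -0.54. *Kat5*, the catalytic subunit of the NuA4/Tip60 complex, came nearest, with an FPKM of 32.09 and 29.52 in control and of 25.95 and 24.08 in KO (log2 fold change -0.29, unadjusted p of 0.0706 and adjusted p = 0.352 by limma). The paralogs *Ep300* and *Crebbp* overlapped, with -0.14 and -0.17, and *Kat7* was almost level at 46.44 and 47.80 in control and 48.05 and 46.10 in KO. The class median was -0.34 without KO 1. The shared direction rested on the pools. With 1 library left out, the log2 fold change reached 0.11 for *Ep300*, 0.09 for *Kat2b*, 0.03 for *Kat8* and *Kat7* and 0.02 for *Crebbp*. Those of *Kat5* and *Kat6b* stayed negative.

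The partners of the acetyltransferases held single genes with larger differences, while the median size of the log2 fold change was 0.17 for the partners and 0.17 for the enzymes. Of 31 partners tested, 2 were higher and 3 lower in KO at an unadjusted limma p below 0.05. These calls were 16.1% of the list, against 16.2% of all tested genes. *Trrap*, the large scaffold shared by NuA4/Tip60 and SAGA, had FPKM values of 25.43 and 26.71 in control 1 and 2, and of 14.61 and 11.67 in KO 1 and 2. Both KO pools were well below both control pools, and the log2 fold change was -0.94 (standard error 0.16, unadjusted p of 0.000591 and adjusted p = 0.0674 by limma). *Supt20*, a SAGA subunit, went the other way, at 67.89 and 67.10 in control and 98.68 and 94.64 in KO (log2 fold change 0.51, unadjusted p of 0.00227 and adjusted p = 0.0970 by limma).

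Over all 8 partner lists, 159 genes were listed and 124 tested, of which 10 were higher and 5 lower in KO, 0 passed adjustment, and the median log2 fold change was -0.02. The 15 called at an unadjusted p below 0.05 were 12.1% of those tested, against 16.2% of all genes. None of 12 tested partners in heterochromatin and DNA methylation was called, against 16.2% of all tested genes. Whereas 47.1% of all tested genes did not overlap, the groups overlapped for all 12. That held for *Cbx3*, an HP1 protein, at 444.26 and 305.59 in control and 441.83 and 449.20 in KO.

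Of the 6 tested arginine methyltransferases, 1 was called, or 16.7%, against 16.2% of all tested genes. Both KO values were below both control values in 5, as in 22.9% of all tested genes. *Prmt6*, which methylates H3R2, had FPKM values of 6.44 and 4.63 in control 1 and 2, and of 2.57 and 3.00 in KO 1 and 2. The KO pools were close to each other and the control pools were not. The mean was 5.54 ± 1.28 (SD, n = 2) in control and 2.79 ± 0.304 in KO, or 0.503 times control, with a log2 fold change of -0.78 (standard error 0.26, unadjusted p of 0.0193 and adjusted p = 0.222 by limma). The unadjusted p was 0.0672 without KO 1 and 0.150 without control 1. *Prmt1* had 42.82 and 46.77 in control and 38.97 and 42.37 in KO, for a log2 fold change of -0.14, and *Prmt5* -0.15, and neither was called (adjusted p = 0.650 and 0.683). The class median was -0.14, and it was -0.06 without control 2 and -0.23 without control 1.

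Bromodomain readers held the tested member with the largest positive difference. *Brd7*, a subunit of the PBAF form of SWI/SNF, had FPKM values of 8.77 and 8.37 in control 1 and 2, and of 13.55 and 17.79 in KO 1 and 2. The KO pools differed by more than the control pools did, and both were above control. The mean was 8.57 ± 0.283 (SD, n = 2) in control and 15.7 ± 3.00 in KO, 1.83-fold higher, with a log2 fold change of 0.79 (standard error 0.19, unadjusted p of 0.00385 and adjusted p = 0.119 by limma). The call of *Brd7* held with each library left out, with an unadjusted p of at most 0.0426. The other 6 tested readers had log2 fold changes between -0.22 and 0.11. *Brd2* was not called, and had 121.70 and 121.58 in control and 114.24 and 95.71 in KO (log2 fold change -0.22, adjusted p = 0.445).

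Of the 14 tested members with Smarc or Arid names, 1 was higher in KO at an unadjusted limma p below 0.05. This was 7.14%, against 16.2% of all tested genes called in either direction. Within this class 11 had a log2 fold change within 0.25 of 0, and the median was 0.02. *Arid4a*, a subunit of the Sin3 co-repressor complex rather than of SWI/SNF, had an FPKM of 46.47 and 44.43 in control and of 61.27 and 54.36 in KO. Both KO pools were above both control pools, with a log2 fold change of 0.34 (standard error 0.13, unadjusted p of 0.0306 and adjusted p = 0.259 by limma). The call did not hold with any single library left out (unadjusted p from 0.0514 to 0.202). *Smarcd2*, a SWI/SNF subunit, had 12.39 and 8.98 in control and 13.78 and 16.04 in KO (unadjusted p of 0.0555 and adjusted p = 0.322 by limma).

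The ATPases of SWI/SNF, *Smarca2* and *Smarca4*, overlapped between the groups with log2 fold changes of -0.16 and -0.09. *Smarce1* had an FPKM of 194.25 and 164.04 in control and of 171.36 and 175.53 in KO. Transcripts of the pseudogenes Smarce1-ps1 and Gm8494 match that of *Smarce1* over 1077 and 1233 bases at 98.3% and 98.9% identity, and were listed at 3.07 to 5.76 FPKM, so reads could be split between them. *Arid5a* varied widely within both groups, at 163.35 and 261.86 in control and 230.30 and 175.67 in KO. *Smarcc1*, the only tested member within 1 Mb of *Setd2*, had 7.66 and 7.59 in control and 7.57 and 9.48 in KO, for a log2 fold change of 0.14 (adjusted p = 0.794). Among 7 tested partners without such names, 1 was called, or 14.3%, against 16.2% of all tested genes. This was *Actl6a*, the actin-related subunit of BAF, INO80 and NuA4. It was lower in KO, at 71.87 and 71.88 in control and 51.95 and 55.55 in KO (log2 fold change -0.41, unadjusted p of 0.00885 and adjusted p = 0.168 by limma).

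Of the 9 tested CHD remodellers, 1 was called lower, or 11.1%, against 7.57% of all tested genes. The log2 fold change was negative for 8, against 50.6% of all tested genes, 5 were below control in both KO libraries, against 22.9%, and the class median was -0.24. *Chd6*, a helicase with roles in stress responses, had FPKM values of 17.26 and 16.38 in control 1 and 2, and of 13.85 and 9.14 in KO 1 and 2. The KO pools differed from each other by more than KO 1 did from control 2, and the groups did not overlap. The log2 fold change was -0.54 (standard error 0.21, unadjusted p of 0.0374 and adjusted p = 0.279 by limma), and the unadjusted p was 0.274 without KO 2, 0.0946 without control 1 and 0.0590 without control 2. *Chd7* had 83.81 and 81.93 in control and 76.48 and 64.02 in KO, with a log2 fold change of -0.24 (adjusted p = 0.411).

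The NuRD ATPases *Chd3* and *Chd4* had log2 fold changes of -0.27 and -0.16, and *Chd1*, which binds H3K4me3, -0.28, and none was called (adjusted limma p from 0.456 to 0.701). *Chd2* was the exception in direction, at 190.46 and 185.50 in control and 252.04 and 191.41 in KO, with a log2 fold change of 0.22 (adjusted p = 0.495). Its exons share 2628 bases on the same strand with a noncoding transcript, 1810026B05Rik, which was listed at 178.72 to 277.49 FPKM, so the level of *Chd2* is uncertain. The class median was -0.11 without KO 2 and -0.09 without control 1.

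Other remodelling complexes included the partner with the second smallest p. *Baz2b*, a bromodomain protein of ISWI-type complexes, had FPKM values of 12.36 and 13.73 in control 1 and 2, and of 22.12 and 25.93 in KO 1 and 2. Both KO pools were far above the control pools, and the log2 fold change was 0.83 (standard error 0.16, unadjusted p of 0.00109 and adjusted p = 0.0795 by limma). Of 26 tested subunits of INO80, SRCAP, ISWI and related complexes, 3 were higher and 0 lower at an unadjusted limma p below 0.05. The 3 called were 11.5% of those tested, against 8.61% of all tested genes called higher and 16.2% called in either direction. *Chrac1*, a histone-fold subunit, was the second by p, at 143.29 and 121.94 in control and 165.22 and 168.73 in KO (adjusted p = 0.242).

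The DNA methylation genes that were tested had nearly equal means. *Tet2* had an FPKM of 60.88 and 58.25 in control and of 61.23 and 57.59 in KO, and *Dnmt1* 6.88 and 7.73 in control and 8.60 and 6.56 in KO. The log2 fold changes were -0.0040 and 0.04, and both overlapped (adjusted p = 0.993 and 0.958).

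**Figure D4:**
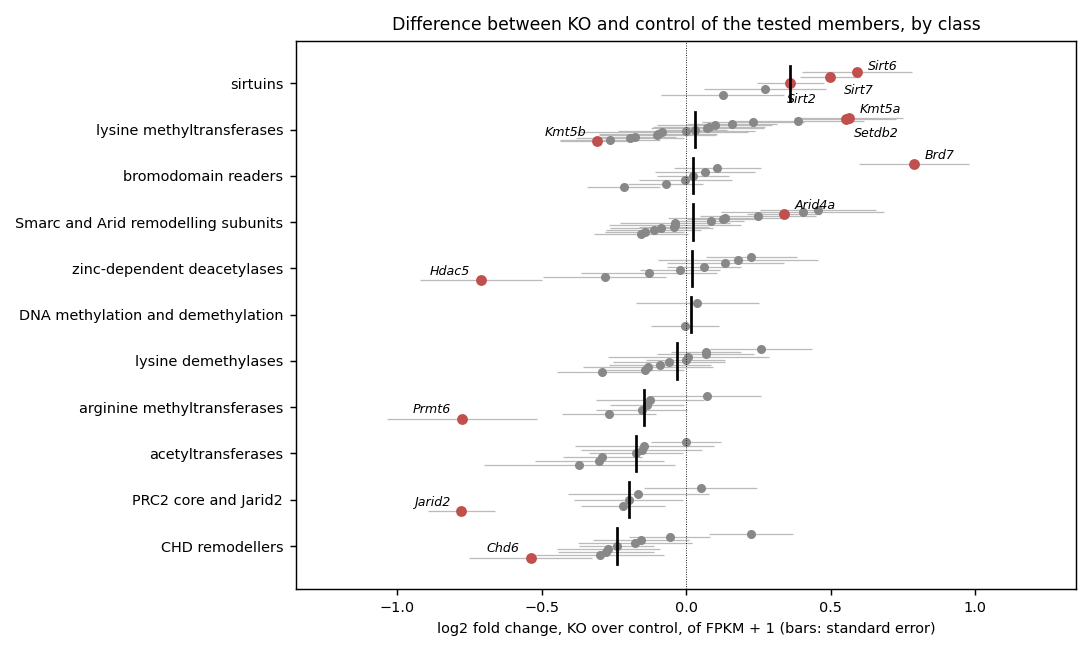
Log2 fold change (KO over control, on FPKM + 1) of the 90 tested members by class, with grey bars for the standard error, red points for the 12 members with an unadjusted limma p below 0.05 and a black bar for the class median. The sirtuins have the highest median (0.36) and the CHD remodellers the lowest (-0.24), and most members lie within 0.25 of the dotted line at 0.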

How the data were processed

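Libraries of poly(A) RNA were read from both ends (150 bp). Per the labels and methods, reads were aligned by STAR 2.5 to GRCm38 and genes quantified by RSEM 1.2, and the authors deposited FPKM for 53379 genes in 2 control and 2 KO libraries. The step that gave the 4 columns a common distribution is not given in the sources used here. Depth is unknown, so neither counting intervals nor a count test could be given.

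Gene types, positions and exons came from GENCODE M21 (GRCm38), in which 53274 identifiers matched. Genes were tested with limma 3.58.1 in R 4.3.3 on log2(FPKM + 1), with a trend and without covariates, for 7639 protein-coding genes over the filter, and the fit was tested on simulated data. The threshold of the study, an unadjusted p of 0.05, is given beside Benjamini-Hochberg adjusted values. Same-numbered libraries did not deviate together (r = -0.305), so the replicate number was not used as a block.

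Promoters were taken from RefSeq (GRCm38.p6). Transcripts of the 12 called members and 5 others were searched against all others with BLAST 2.17.0 for matches of at least 200 bases at 90% identity, and figures were drawn with matplotlib 3.10.9. Members, gene lists and pairs were chosen with earlier results of these data known. The members named are those with an adjusted p below 0.05, the 10 smallest p-values in each direction below 0.05, the 2 highest levels of each class, *Kdm6a* and members within 1 Mb of *Setd2*. Both genes of the 3 pairs that differed most and at most 2 partners per list follow, and the choice of further members and markers followed a look at their values. The splenic libraries were not analysed here. 1 member that the naming rule covers is left out of the text.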

Additional observations from a re-analysis of the deposited data

How the results depend on the processing

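With 2 libraries a group, each call rests on both pools, and low FPKM limits the precision of members such as *Prmt6*. Of the 12 calls at an unadjusted p below 0.05, each kept its direction in every fit, and 104 fits under the other pseudocounts, filters, scalings, gene types and trend setting kept the call and 4 did not. With 1 library left out, 24 fits kept it and 24 did not. *Smarcc1* ranged from -0.0092 (without KO 2) to 0.28 with 1 library left out. The median FPKM of the members was 20.2 with each library rescaled.

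Over all tested genes, 658 were higher, 578 lower and 45 passed adjustment. Without a filter 1170 were higher and 0 passed adjustment. With a mean FPKM of at least 1, 27 passed, with all gene types 13, and without a trend 3. With 1 library left out, 330 to 650 were higher, 314 to 600 lower and 2 to 66 passed. Among the members, 3 to 7 were then higher, 1 to 8 lower and 0 passed. The adjusted call of *Jarid2* was also lost (0 members) with a mean FPKM of at least 1, without a filter, with all gene types, with median-centred values and without a trend. Of the partners, 6 were higher without a trend, and 5 to 12 with 1 library left out.

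The replicate number as a block gave 419 higher, 377 lower and 27 adjusted calls over all genes, 4 members higher, 0 adjusted, and 5 partners higher. *Sirt2*, *Kmt5a*, *Arid4a* and *Kmt5b* were no longer called. Crossing the pairs (control 1 against KO 2, control 2 against KO 1), an alternative added after seeing the data, gave 1008 higher, 983 lower and 465 adjusted calls, of which 3 were members, and 12 partners lower and 8 adjusted.

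With 1 library left out, the median log2 fold change of all members ranged from -0.061 to 0.010, of CHD remodellers from -0.30 to -0.095, of Smarc and Arid subunits from 0.022 to 0.092, of acetyltransferases from -0.34 to -0.12, of arginine methyltransferases from -0.23 to -0.064, of bromodomain readers from -0.049 to 0.17, of lysine demethylases from -0.12 to 0.012, of lysine methyltransferases from -0.054 to 0.10 and of zinc-dependent deacetylases from -0.056 to 0.058. The medians of the sirtuins and of PRC2 kept their sign. The cause of these shifts was not tested.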
